A study of Mus musculus with 23 samples.

Results

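The genes described here are 5 of the 22488 gene symbols in the count table: Cd4, Cd8a and Cd8b1, which encode the co-receptors of T cells, and Zbtb7b and Runx3, which encode a pair of transcription factors that act on the choice between the CD4 and the CD8 lineage. They were chosen by gene name and not by a threshold on measured values, though with earlier results of these data known, and all 5 were found in the table and passed the filter on low counts in every comparison. Their levels are given as scaled counts (CPM), a gene's count divided by the library total and multiplied by 1000000, and the co-receptors and the factors are also compared as count ratios within a library.

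CD4 is a single-chain protein that binds MHC class II on antigen-presenting cells, and CD8 is a dimer, usually of an alpha and a beta chain, that binds MHC class I. Both bring the kinase Lck to the T cell receptor. Zbtb7b, also called ThPOK, keeps CD4 T cells from taking on CD8 features, whereas Runx3 acts in CD8 T cells, where it represses Cd4 and favours Cd8 genes and the cytotoxic programme. In the spleen, some dendritic cells also carry CD4 or CD8 alpha chains, so that Cd4 and Cd8a are not markers of T cells alone. NK cells express Runx3.

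The stretch of coding sequence that ties a co-receptor to Lck is shown because it separates the CD8 chains. In the tails of CD4 and CD8 alpha, a pair of cysteines with 1 residue between them contacts Lck. The sequences come from the GENCODE M21 transcripts and run 5′ to 3′, with the cysteine codons in capitals. The Cd4 stretch is bases 1318 to 1350 of the 1374 coding bases of Cd4-201, and the Cd8a stretch is bases 667 to 699 of the 744 of Cd8a-201.
Cd4: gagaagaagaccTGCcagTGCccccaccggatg
Cd8a: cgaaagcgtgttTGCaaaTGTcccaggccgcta
Cd8b1-201, with 642 coding bases, had no such pair of codons in its last 60 codons. A Cd8b1 level is thus the level of the chain without this contact, and is given below next to that of Cd8a.

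Promoters of the genes are shown because Runx3 is itself a DNA-binding factor with targets among these loci, and their relation to the levels was not tested. RefSeq windows on GRCm38.p6, from 250 bases before to 50 bases after a start site, were listed for 3 of the 5 genes (Cd8a, Runx3 and Zbtb7b). The core Runx motif TGTGGT was searched on both strands, where its reverse reads ACCACA, and no other motif was searched. It stood in 5506 of 32851 windows of this length (16.8%). Capitals mark a match, and a match is a description of the letters only. The window of Cd8a (chr6:71373177-71373476, plus strand) had none. The upstream of 2 windows of Runx3 (chr4:135120395-135120694, plus strand) had 2 reverse matches, and the downstream window had none. For Zbtb7b, 1 of 2 windows (chr3:89387622-89387921, minus strand) had 1 match.
Cd8a: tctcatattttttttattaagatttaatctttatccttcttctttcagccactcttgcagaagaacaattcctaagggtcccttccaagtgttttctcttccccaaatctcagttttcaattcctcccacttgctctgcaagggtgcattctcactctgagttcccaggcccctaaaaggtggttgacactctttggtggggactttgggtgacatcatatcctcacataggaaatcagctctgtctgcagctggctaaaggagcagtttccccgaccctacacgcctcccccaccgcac
Runx3: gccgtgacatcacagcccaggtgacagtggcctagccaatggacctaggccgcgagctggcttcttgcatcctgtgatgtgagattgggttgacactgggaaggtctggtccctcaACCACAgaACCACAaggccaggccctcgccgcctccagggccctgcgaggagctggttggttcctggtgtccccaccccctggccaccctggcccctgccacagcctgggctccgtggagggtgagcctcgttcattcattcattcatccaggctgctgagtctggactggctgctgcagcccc
Zbtb7b: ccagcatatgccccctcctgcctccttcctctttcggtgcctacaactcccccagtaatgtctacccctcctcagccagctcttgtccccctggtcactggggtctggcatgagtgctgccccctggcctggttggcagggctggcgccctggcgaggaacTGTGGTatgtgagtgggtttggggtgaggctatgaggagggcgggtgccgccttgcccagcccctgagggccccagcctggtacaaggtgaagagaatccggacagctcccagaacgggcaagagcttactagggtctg

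The study tested how little material a library protocol (EASY-RNAseq) can start from, with cDNA primed by oligo-dT and cut by the Tn5 transposase. One material was spleen T cells that the series calls CD3+, with 3 libraries each from 100, 500, 1000 and 10000 cells (12 libraries). The other was diluted RNA, with 2 libraries from 0.1 ng and 3 each from 0.5, 1 and 5 ng (11 libraries). All samples are labelled strain C57 and 6 to 18 weeks of age, with no treatment named and no statement on pooling or on which libraries share an animal or a dilution series, so p-values refer only to the spread between these libraries, which may be technical. The RNA carries 2 labels that disagree, mouse spleen in the design text and the macrophage line raw 264.7 in the sample characteristics. Library totals ran from 1737067 to 7908638 counts.

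Marker lists were read against these labels. The 12 T cell markers took 0.662% to 0.760% of counts in 11 T cell libraries and 0.164% to 0.194% in the RNA libraries, with no marker at 0 in any library. The 12 B cell markers took 2.83% to 3.90% in the RNA, where the 8 markers of the macrophage line took 0.189% to 0.230%, and lymphocyte markers in the RNA go against the label of a macrophage line. Replicate 3 of the 100-cell group stood apart from the other T cell libraries: B cell markers took 1.53% of its counts against 0.0978% to 0.272%, T cell markers 0.412%, and its 4 Y-linked genes summed to 184 CPM against 0 to 4.33 CPM. The 11 RNA libraries held 287 to 455.5 CPM of these genes, so that this signal differed between the materials in every comparison of T cells with RNA, and its part in the results was not tested. The results that rest on replicate 3 of the 100-cell group are given with and without that library.

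Cd4 was high in all T cell libraries and lower, but well detected, in all RNA libraries. Its counts were 762, 729 and 1135 in replicates 1, 2 and 3 at 100 cells, which is 396, 394 and 302 CPM. It lay at 489, 477 and 433 CPM at 500 cells, at 419, 450.1 and 359 CPM at 1000 cells, and at 589.8, 549 and 592 CPM at 10000 cells. The 10000-cell libraries were therefore the highest of all, and the lowest T cell library was the one that stood apart. In RNA, Cd4 lay at 95.8 and 132 CPM at 0.1 ng, at 116, 141 and 151 CPM at 0.5 ng, at 139.6, 126 and 156 CPM at 1 ng, and at 133, 154 and 141 CPM at 5 ng. No RNA library reached the lowest T cell library. In the order of group means, 10000 cells (577 ± 24.1 CPM, SD, n = 3) stood above 500 (466 ± 29.1), 1000 (409 ± 46.4) and 100 cells (364 ± 53.9), and only 10000 cells were separate from the next group. The 4 RNA groups (114 to 142 CPM) overlapped with their neighbours.

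Cd8a encodes the alpha chain, and its counts per library were 161 to 1467. It lay at 248, 347 and 178 CPM at 100 cells, at 347, 343 and 328 CPM at 500, at 400.2, 414 and 382 CPM at 1000, and at 357.5, 404 and 394.5 CPM at 10000. Here the 1000-cell and 10000-cell libraries overlapped, and the spread at 100 cells (257 ± 84.9 CPM, n = 3) was the widest of the 8 groups for this gene. The RNA libraries held 82 and 105 CPM at 0.1 ng, 125, 111 and 135 CPM at 0.5 ng, 112, 141 and 130.4 CPM at 1 ng, and 135, 139 and 137 CPM at 5 ng. The 0.1 ng libraries were lower than all other RNA libraries, and all RNA libraries were lower than all T cell libraries.

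Cd8b1 encodes the beta chain. At 100 cells it lay at 330.1, 301 and 241 CPM, at 500 cells at 394, 417.5 and 399 CPM, at 1000 cells at 508, 524 and 491 CPM, and at 10000 cells at 405, 435 and 450.3 CPM. In contrast to Cd4, the highest libraries were those from 1000 cells, which did not overlap with the 10000-cell libraries. In RNA its group means lay between 122 and 132 CPM, with single libraries from 116 to 141 CPM, and the 4 groups overlapped in a row, with 0.1 ng (132 ± 11.9 CPM, n = 2) at the top of the order.

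Zbtb7b, the CD4 lineage factor, was lower and closer between the materials. It lay at 99.8, 122 and 71 CPM at 100 cells, 114, 96.7 and 123 CPM at 500, 181.5, 142 and 124 CPM at 1000, and 163, 175 and 160.5 CPM at 10000. The RNA libraries held 100.4 and 81.2 CPM at 0.1 ng, 75.3, 79.2 and 102 CPM at 0.5 ng, 70.4, 63.6 and 69.3 CPM at 1 ng, and 89.3, 88 and 85.2 CPM at 5 ng. The groups of 100 and 500 cells overlapped with those of 0.1 and 0.5 ng RNA, while the 1000-cell and 10000-cell libraries stood above every RNA library.

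Runx3, the CD8 lineage factor, did not separate the materials. T cell libraries ranged from 96.8 to 165 CPM (median 146) and RNA libraries from 110.5 to 149 CPM (median 136). The 10000-cell group (158 ± 5.15 CPM, n = 3) was above the next group in the order, 5 ng RNA (137 ± 11.7 CPM, n = 3), and the ranges of the remaining groups overlapped with their neighbours. Zbtb7b and Runx3 each overlap an antisense gene in the annotation (Gm15417 and Gm16224), and the strand setting of the counting was not given, so reads of such a partner cannot be told apart from theirs.

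**Figure D1:**
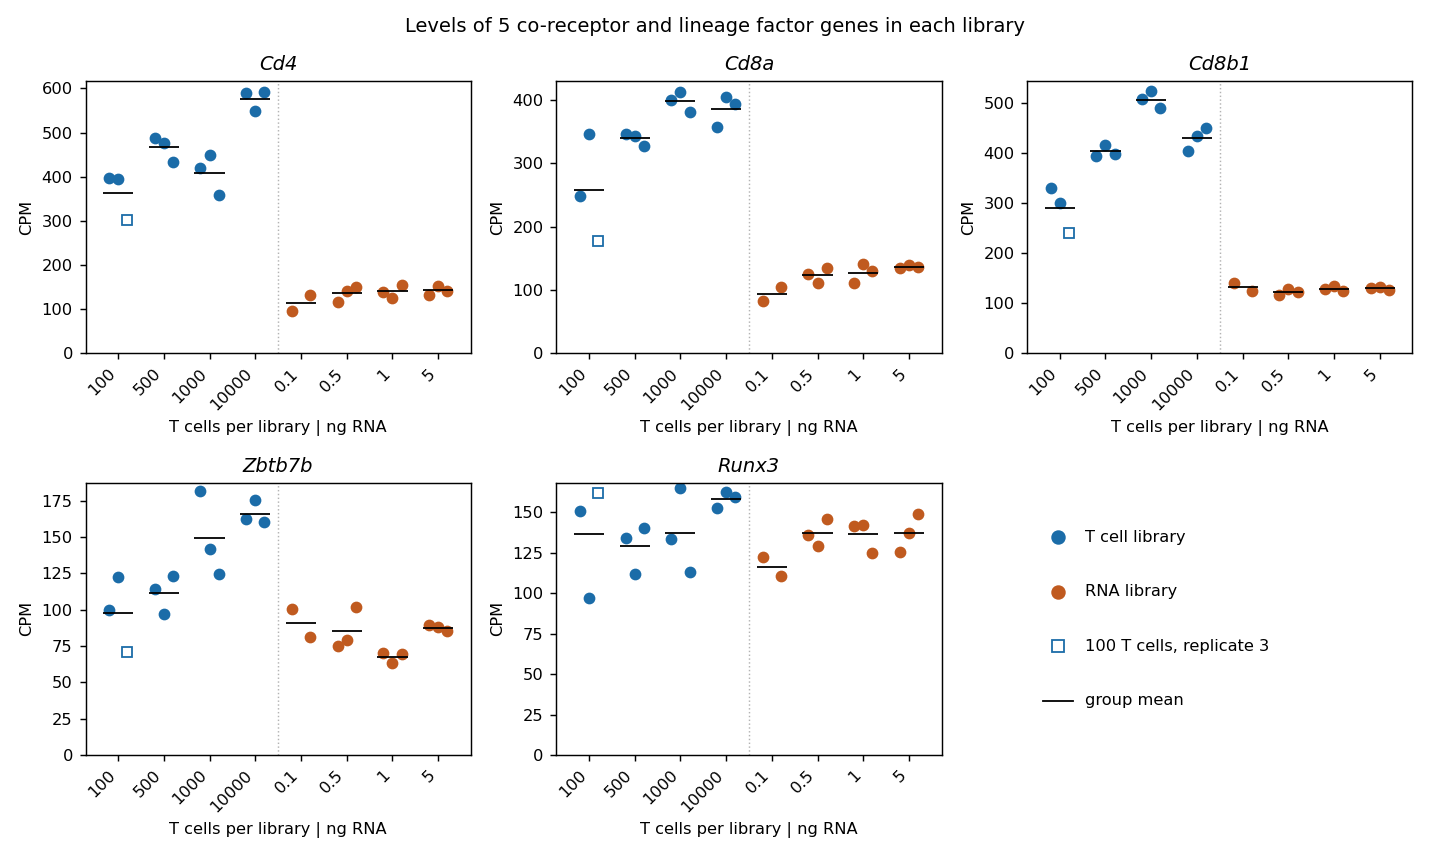
Level in CPM (y axis, from 0) of each gene in each of the 23 libraries, by T cells or ng RNA per library (x axis); bars are group means and the open square is the 100-cell library that stood apart. Cd4, Cd8a and Cd8b1 lie at 178 CPM or more in all T cell libraries and at 156 CPM or less in all RNA libraries, while Runx3 overlaps between the materials.

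Per kilobase of exon the order of the genes was another. At 10000 cells Cd8b1 had the highest level (290 ± 15.6 CPM per kilobase, n = 3), followed by Cd4 (143 ± 5.99), Cd8a (106 ± 6.8), Runx3 (31.6 ± 1.03) and Zbtb7b (29.7 ± 1.44), with exon lengths of 1483, 4032, 3637, 5003 and 5591 bases. At 5 ng RNA, Cd8b1 was again highest (87.9 ± 2 CPM per kilobase, n = 3), while Cd8a (37.7 ± 0.574) and Cd4 (35.3 ± 2.56) did not differ beyond their spread. Since cDNA was primed from the poly(A) tail, reads need not cover a transcript evenly, and division by length was not tested against this.

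Whether the co-receptor genes differ between the materials was asked at the highest inputs, with 10000 T cells against 5 ng RNA. All 3 co-receptor genes and Zbtb7b were higher in T cells in edgeR's quasi-likelihood test, with p-values adjusted over 14425 genes by the Benjamini-Hochberg method, and Runx3 did not pass. Cd4 rose most, by a log2 fold change of 1.91 (SE 0.0589, adjusted p = 2.05e-37), or 3.75-fold. Cd8b1 rose by 1.61 (SE 0.0612, adjusted p = 1.45e-32) and Cd8a by 1.38 (SE 0.063, adjusted p = 1.84e-28). Zbtb7b rose by 0.81 (SE 0.083, adjusted p = 5.39e-13), and Runx3 differed by 0.09 (SE 0.0786, adjusted p = 0.333).

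Against the background, 56% of all genes tested were called, 28.7% higher and 27.3% lower, and the 4 of 5 genes higher in T cells are read against that share. For all 5 genes the groups did not overlap, in the direction that 36.3% of tested genes showed (61.4% in either direction and 25.1% lower). The call of Runx3 turned with the scaling: with library totals alone its log2 fold change was 0.21 (adjusted p = 0.017), where the median of all genes moved from 0.03 to 0.15. In these bulk libraries, fewer cells of a type and less RNA per cell cannot be told apart.

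The same order of inputs one step lower gave a further comparison made from other libraries. Between 1000 T cells and 1 ng RNA, where 40% of 12656 genes were called and 20.1% called higher, the same 4 genes passed and did not overlap between the groups, as for 50.4% of genes in either direction. There Cd8b1 rose most (1.96, SE 0.087, adjusted p = 1.96e-15), ahead of Cd8a (1.63, SE 0.0988) and Cd4 (1.53, SE 0.102), and Zbtb7b rose by 1.13 (SE 0.145, adjusted p = 8.61e-07). Between 500 T cells and 0.5 ng, where 37.1% of 13001 genes were called and 19% called higher, the 3 co-receptor genes passed (Cd4 1.77, Cd8b1 1.71, Cd8a 1.45). Zbtb7b had a log2 fold change of 0.37 (SE 0.176, adjusted p = 0.107). The amounts of RNA behind the cells and the diluted RNA were not matched in these pairs.

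At the lowest inputs, 100 T cells and 0.1 ng RNA, no member passed, and 7 of 13073 genes (0.0535%) were called, while 2049 had an unadjusted p under 0.05. The 3 co-receptor genes nonetheless lay higher in every T cell library than in both RNA libraries, as did 21.1% of tested genes. The log2 fold changes were 1.70 for Cd4 (SE 0.294, adjusted p = 0.111), 1.48 for Cd8a (SE 0.362, adjusted p = 0.197) and 1.16 for Cd8b1 (SE 0.28, adjusted p = 0.196). Without the 100-cell replicate 3, these 3 genes passed, with 545 of 12229 genes called (4.46%, with 2.98% lower): Cd4 rose by 1.82 (adjusted p = 0.0079), Cd8a by 1.70 (adjusted p = 0.0219) and Cd8b1 by 1.28 (adjusted p = 0.0289). Runx3 did not pass at any of the 4 pairs of inputs with edgeR's own scaling, with log2 fold changes from -0.10 to 0.25 over all libraries.

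**Figure D2:**
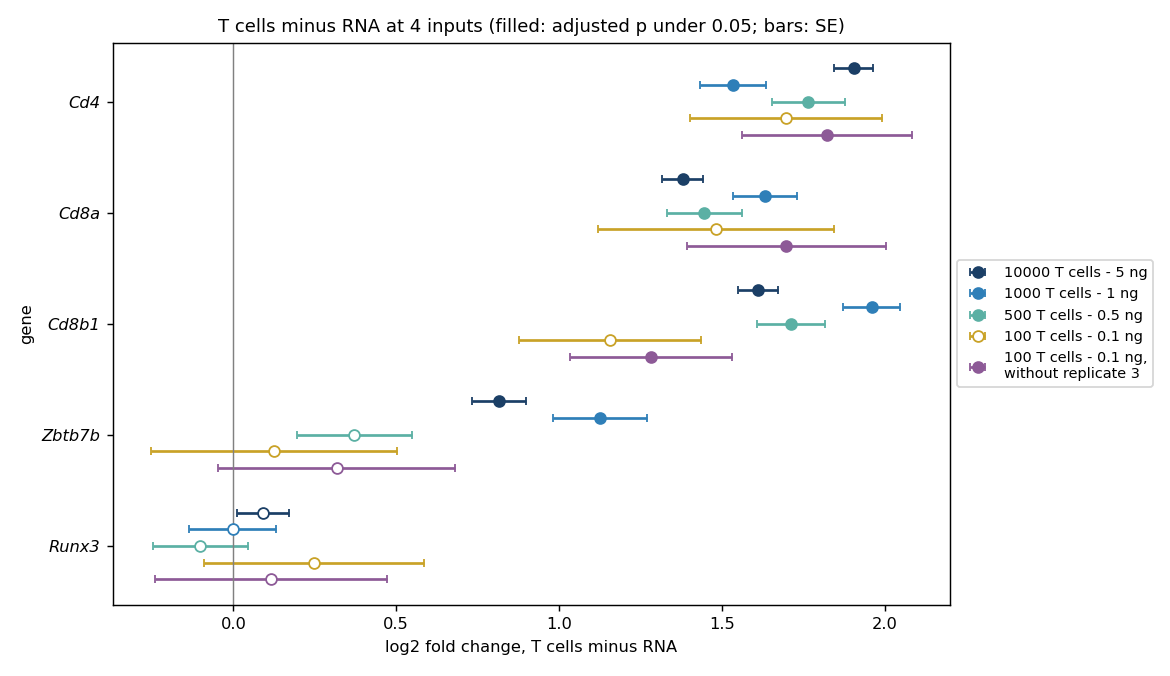
Log2 fold change of T cells minus RNA (x axis, with SE) for each gene (y axis) at 4 pairs of inputs, and at the lowest pair without the 100-cell replicate 3; filled points passed an adjusted p of 0.05 in edgeR's quasi-likelihood test. The co-receptor genes lie between 1.16 and 1.96, Zbtb7b between 0.12 and 1.13, and Runx3 near 0.

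Genes around the co-receptors were taken from 6 lists, in 10000 T cells against 5 ng RNA, where the median of all genes was 0.03. Of 16 genes of the co-receptor kinase and the T cell receptor complex, 14 were higher and 2 lower in T cells (median 1.82). Lck, the kinase bound by the cysteine pair shown above, lay at 1093 ± 23 and 276 ± 20.5 CPM (n = 3 each) and rose by 1.88 (SE 0.049). Lat, an adaptor downstream, rose by 2.22, Trbc2, a T cell receptor beta constant region, rose by 2.12, and Ptprc, which encodes the leukocyte antigen CD45, rose by 0.15 (SE 0.0317). The 12 T cell markers, which share members with this list, were all higher, with a median of 1.90, so that the rise of Cd4 was near that median and those of Cd8b1 and Cd8a were below it.

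Of 20 partners in lineage control, 13 were higher and 4 lower (median 0.65). Tcf7 and Lef1, factors of T cell development, rose by 2.15 (SE 0.0436) and 2.35 (SE 0.0629), and Ets1 rose by 0.77 (SE 0.0404), while Ikzf1 differed by 0.01 (SE 0.0432, adjusted p = 0.917). Of 15 CD4 lineage and helper genes, 10 were higher and 3 lower (median 1.03). Cd5, a surface receptor of T cells, and Igfbp4 rose by 1.98 and 2.30, whereas Cxcr5 and Bcl6, which follicular helper T cells share with B cells, fell to log2 fold changes of -3.14 and -2.43. Gata3 and Tox stand in both of these lists. Of 18 CD8 lineage and cytotoxic genes, 6 were higher and 7 lower (median -0.16), or 6 and 6 with other scalings. Ctsw, a protease of cytotoxic cells, and Cd160 rose by 1.37 and 1.76, while Gzma, a granzyme, Ccl5, a chemokine, and Ly6c2 had log2 fold changes of -3.24, -1.03 and -0.28.

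The ligands of the co-receptors were read in the same comparison. All 11 MHC class II genes, the ligand side of CD4, were lower in T cells (median -4.21). H2-Eb1, H2-Aa and H2-Ab1, chains of the class II molecules, had log2 fold changes of -4.87, -4.74 and -4.47, and Cd74, the invariant chain, lay at 305 ± 18.3 CPM against 6994 ± 69.5 CPM (log2 fold change -4.63, SE 0.0386, n = 3 each). Of 9 MHC class I genes in the table, 5 were higher and 1 lower (median 0.13). Nlrc5, the activator of class I genes, rose by 1.03, H2-Q7 by 0.96 and H2-K1 by 0.41, H2-D1 differed by 0.06 (adjusted p = 0.109), and B2m fell by 0.38.

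**Figure D3:**
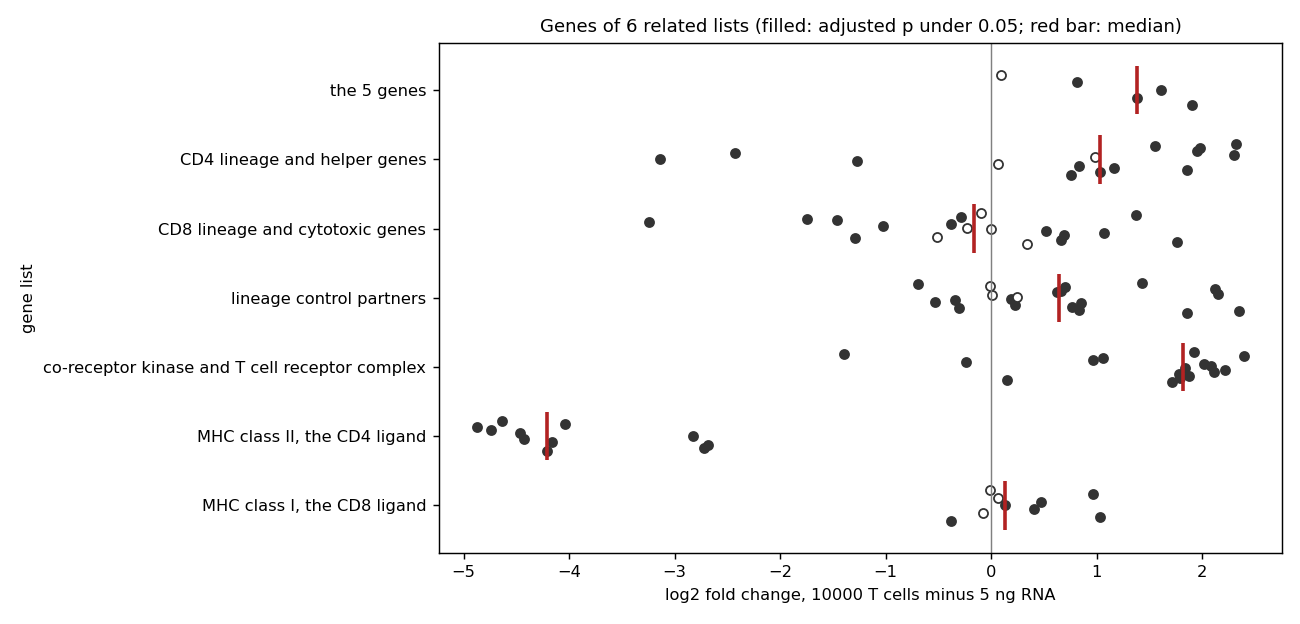
Log2 fold change of 10000 T cells minus 5 ng RNA (x axis) for the 5 genes and for each gene of 6 lists (y axis); filled points passed an adjusted p of 0.05 in edgeR's quasi-likelihood test and red bars are medians. The receptor complex has a median of 1.82 and the MHC class II genes one of -4.21.

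Other cells that carry co-receptors were measured by their markers. Markers of the dendritic cells that can carry CD8 alpha took 0.0666% to 0.0978% of counts in RNA and 0.011% to 0.0219% in 11 T cell libraries, and 7 of 8 were lower in 10000 T cells than in 5 ng RNA, with 1 higher (median -2.14). Of the dendritic cells that can carry CD4, 6 of 8 markers were lower and 1 higher (median -1.82), with 0.0682% to 0.0822% of counts in RNA and 0.0393% to 0.0524% in 11 T cell libraries. In the 100-cell replicates 1 and 2, 3 and 4 of the 8 markers were at 0, with shares of 0.0436% and 0.0402%. The share in these T cell libraries thus came from part of the list and does not count dendritic cells. Clec4a4, which defines these cells, lay at 1.89 ± 0.881 CPM at 5 ng and 1.44 ± 1.47 CPM at 10000 cells (n = 3 each), and at 0 and 18.3 CPM in the 0.1 ng libraries. Of 6 tested markers of plasmacytoid dendritic cells, 3 were lower and 2 higher (median -1.58), and of 8 NK cell markers 5 were lower and 3 higher (median -2.12). The summed share of the NK cell markers nonetheless overlapped between the materials, with 0.0185% to 0.0358% of counts in RNA and 0.0204% to 0.0374% in 11 T cell libraries. Klrd1, Nkg7, Eomes and Gzma also stand in the list of CD8 lineage and cytotoxic genes, so this sum does not measure NK cells alone. All 12 markers of macrophages and monocytes (median -4.42), 8 of the macrophage line (-3.73), 12 of B cells (-4.27), 8 of neutrophils (-7.82) and 8 of red cells (-5.88) were lower in T cells. The part of these cells in the co-receptor and Runx3 counts of the RNA was not tested.

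Whether the co-receptor genes hold their level as fewer T cells are used was asked against the 10000-cell libraries, which all 3 comparisons share. Red cell markers took means of 0.0172%, 0.0234% and 0.00628% of counts at 500, 1000 and 10000 cells, and B cell markers 0.264%, 0.12% and 0.133%. The labels do not say which cell numbers share a preparation. Input and preparation therefore cannot be told apart in these comparisons or in the slope over cell number. At 500 cells, where 3.21% of 13674 genes were called, 0.746% higher and 2.46% lower, Cd4 fell by 0.32 on the log2 scale (SE 0.0726, adjusted p = 0.0149) and Zbtb7b fell by 0.59 (SE 0.129, adjusted p = 0.0103). Cd8a, Cd8b1 and Runx3 had log2 fold changes of -0.19, -0.10 and -0.31 that did not pass. With 2 libraries left at 10000 cells the values stayed close. The call of Zbtb7b was then lost each time, and that of Cd4 was lost without replicate 1 or 3 but kept without replicate 2. Cd4 had -0.32 (adjusted p = 0.103) without replicate 1 and -0.31 (adjusted p = 0.103) without replicate 3. Zbtb7b had -0.62, -0.56 and -0.62 (adjusted p = 0.0621, 0.108 and 0.0565) without replicate 1, 2 or 3, and the genes called in all then numbered 149, 173 and 150 in place of 439. With all groups in 1 fit neither passed (adjusted p = 0.553 and 0.405). Igha, an antibody constant gene, lay at 2324 to 2471 CPM in these 500-cell libraries and at 0.737 to 14.1 CPM in the T cell libraries from other inputs other than the 100-cell replicate 3, and its part in the lower shares was not tested.

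At 1000 cells, where 3.27% of 13415 genes were called, 1.23% higher and 2.04% lower, the co-receptors went opposite ways. Cd4 fell by 0.48 (SE 0.0733, adjusted p = 3.89e-05), and Cd8b1 rose by 0.25 (SE 0.0685, adjusted p = 0.03). Cd8a differed by 0.06 (SE 0.0737, adjusted p = 0.757), Zbtb7b by -0.14 and Runx3 by -0.19. The groups did not overlap for Cd4, as for 11.4% of genes in that direction, nor for Cd8b1, as for 9.56%. Cd4 passed with any 1 library left out, but not with all groups in 1 fit (-0.49, adjusted p = 0.228), where Cd8b1 had 0.25 (adjusted p = 1). Cd8b1 kept values of 0.21 to 0.28 but missed the threshold without replicate 1 or 2 of the 1000-cell group (adjusted p = 0.0613 and 0.11). The same held without replicate 1, 2 or 3 of the 10000-cell group (adjusted p = 0.266, 0.104 and 0.0749), where the genes called numbered 201, 217 and 181 in place of 438. Of the 16 genes of the kinase and receptor list, 1 was higher, 1 lower and 14 did not pass (median -0.03, against 0.01 for all genes): Lck fell by 0.19 (SE 0.051, adjusted p = 0.0353) and Trac, the receptor alpha constant region, rose by 0.24 (SE 0.0579, adjusted p = 0.0102).

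At 100 cells, 0 of 14099 genes passed edgeR's test (0%), although 1686 had an unadjusted p under 0.05 and DESeq2 called 349. Cd4, Cd8a, Cd8b1 and Zbtb7b had log2 fold changes of -0.67, -0.59, -0.57 and -0.78 (adjusted p from 0.14 to 0.321), and their groups did not overlap, as for 12.1% of genes in that direction. Without replicate 3, 357 of 15159 genes were called (2.36%, with 0.561% higher and 1.79% lower), and Cd4 fell by 0.58 (SE 0.0817, adjusted p = 0.0238) and Cd8b1 by 0.48 (SE 0.0963, adjusted p = 0.0441). Zbtb7b then had a log2 fold change of -0.61 (adjusted p = 0.0692) and Cd8a one of -0.41 (adjusted p = 0.147).

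**Figure D4:**
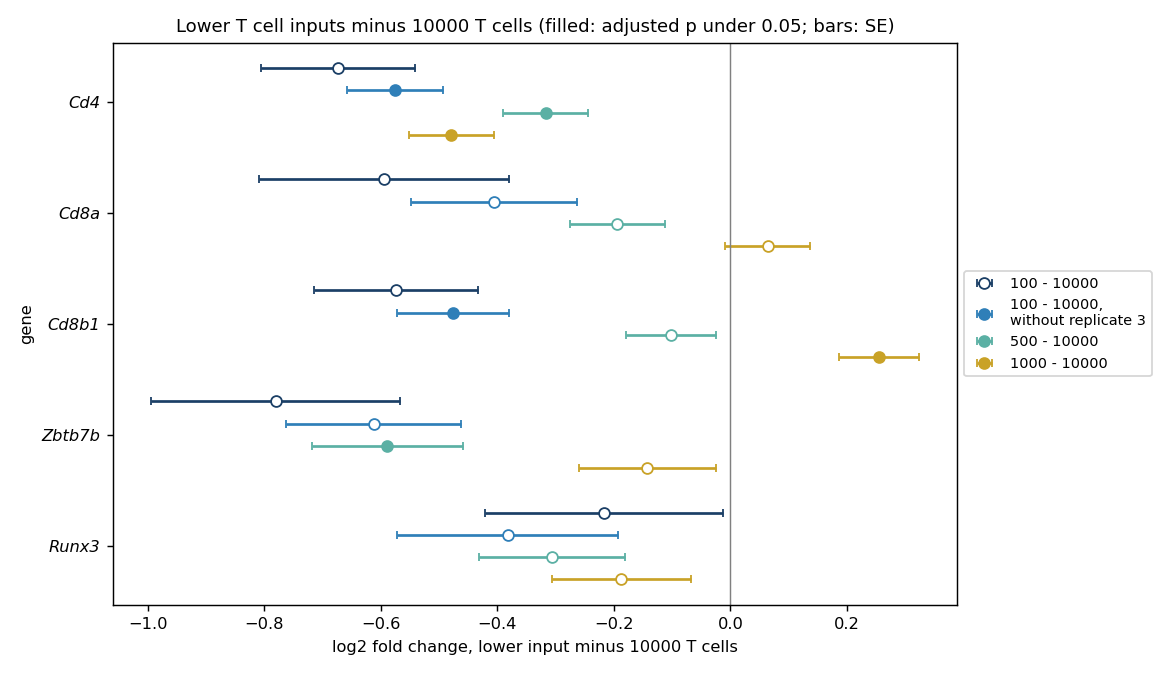
Log2 fold change of each lower T cell input minus 10000 T cells (x axis, with SE) for each gene (y axis), for 100 cells also without replicate 3; filled points passed an adjusted p of 0.05 in edgeR's quasi-likelihood test, and the 10000-cell libraries are shared. Cd4 lies between -0.67 and -0.32, while Cd8b1 runs from -0.57 at 100 cells to 0.25 at 1000 cells.

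A linear trend over log10 of the cell number was fitted to all 12 T cell libraries, and called 115 of 15128 genes (0.76%, and 0.476% rising). Cd4 rose by 0.33 per 10-fold (SE 0.0669, adjusted p = 0.0221), and by 0.28 (SE 0.0628, adjusted p = 0.0223) without the 100-cell replicate 3, where 1.02% of genes were called. Without replicate 1, 2 or 3 of the 10000-cell group its slope was 0.32, 0.34 and 0.32, with an adjusted p of 0.0894, 0.0668 and 0.0982, and 14, 30 and 26 genes were called. Zbtb7b had a slope of 0.41 (SE 0.103, adjusted p = 0.0602), and passed without the 100-cell replicate 2 (0.49, adjusted p = 0.0315). The slopes of Cd8a (0.30), Cd8b1 (0.28) and Runx3 (0.13) did not pass.

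In diluted RNA no member passed against 5 ng, which the 3 comparisons share. The share of genes called was 11.2% at 0.1 ng (4.69% higher, 6.55% lower), 5.09% at 0.5 ng (2.87% higher, 2.21% lower) and 0.0238% at 1 ng (0.0159% lower). At 0.1 ng Cd8a had a log2 fold change of -0.60 (SE 0.15, adjusted p = 0.0554), with groups that did not overlap as for 29.6% of genes in that direction, and Cd4 one of -0.37 (adjusted p = 0.2). Cd8b1 differed by -0.03 and Zbtb7b by 0.01. With 1 library left at 0.1 ng, which is then assumed to vary like the 5 ng libraries, Cd8a passed either way (-0.46 and -0.81, adjusted p = 0.00176 and 3.7e-08). Cd4 passed without replicate 2 (-0.65, adjusted p = 5.08e-06) and Runx3 without replicate 1 (-0.39, adjusted p = 0.00832), while genes called went from 1572 to 8075 and 7869. At 1 ng Zbtb7b had a log2 fold change of -0.37 (SE 0.108, adjusted p = 0.228), with 3 of 12616 genes called. The slope over log10 of the RNA amount, called for 5.68% of 13948 genes (3.56% falling), was 0.30 for Cd8a (SE 0.0998, adjusted p = 0.0799) and did not pass for any of the 5 genes.

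A ratio of counts of 2 genes in 1 library needs no scaling between libraries. The ratio of Cd4 to Cd8a was 1.60, 1.14 and 1.70 in the 100-cell libraries, 1.41, 1.39 and 1.32 at 500 cells, 1.05, 1.09 and 0.939 at 1000 cells, and 1.65, 1.36 and 1.5 at 10000 cells. The 1000-cell libraries were below every other T cell library. In RNA, group means were 1.21 ± 0.064 at 0.1 ng (n = 2), 1.11 ± 0.173 at 0.5 ng, 1.11 ± 0.19 at 1 ng and 1.04 ± 0.0593 at 5 ng (n = 3 each). As a share of the 2 genes' counts, Cd4 took 51.2%, 52.1% and 48.4% at 1000 cells, with exact Clopper-Pearson 95% intervals that together span 46.1% to 54.1%. At 10000 cells it took 62.3%, 57.6% and 60%, with intervals that span 55.9% to 63.9%. The intervals cover counting error only, and with counts halved, for read pairs counted as 2, they span 45.2% to 55% and 55.2% to 64.6%.

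The ratio of Cd4 to Cd8b1 showed the 1000-cell libraries still more clearly. It was 0.825, 0.859 and 0.731 there, against 1.46, 1.26 and 1.31 at 10000 cells, 1.20, 1.31 and 1.25 at 100 cells, and 1.24, 1.14 and 1.09 at 500 cells. Between 1000 and 10000 cells the log2 ratio differed by -0.74 for Cd4 to Cd8b1 and by -0.55 for Cd4 to Cd8a, and the groups did not overlap. The exact permutation p was 0.1, two-sided, in both cases, the smallest that 3 libraries against 3 allow, with an adjusted p of 0.267 over 40 such tests (4 ratios in 10 pairs of groups). The ratio between the CD8 chains had closer group means in T cells: Cd8a to Cd8b1 was 0.785 ± 0.00578 at 1000 cells, 0.841 ± 0.0334 at 500, 0.896 ± 0.0292 at 10000 and 0.88 ± 0.235 at 100 cells (n = 3 each). In RNA it was 0.715 ± 0.186 at 0.1 ng (n = 2) and 0.985 to 1.05 as group means at the larger amounts, and the T cell libraries lay below the RNA libraries without overlap at the 2 highest pairs of inputs. None of the 40 tests between pairs of groups passed after adjustment, which group sizes of 3 and 2 do not allow.

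Over all libraries of a material, 2 of 4 ratios passed a permutation test between the materials. This test shuffled single libraries and ignored their inputs, although Cd4 to Cd8a was 1.025 ± 0.0769 at 1000 cells and 1.503 ± 0.146 at 10000 cells. Its p-values can therefore be too small. Cd4 to Cd8a was 1.34 ± 0.248 in T cells (n = 12) and 1.11 ± 0.134 in RNA (n = 11), a difference of 0.26 in log2 ratio (permutation p = 0.0146, adjusted p = 0.0292), with 8 of 12 T cell libraries above all RNA libraries. Without the 100-cell replicate 3 the difference was 0.23 (permutation p = 0.0269) and no longer passed (adjusted p = 0.0538). The difference went the other way within 1 pair of inputs: it was 0.53 at 10000 cells and 5 ng, 0.32 at 500 cells and 0.5 ng, 0.26 at 100 cells and 0.1 ng (0.15 without replicate 3), and -0.11 at 1000 cells and 1 ng. The ratio of Cd4 to Cd8b1 differed by 0.10 (permutation p = 0.418, adjusted p = 0.418) and that of Cd8a to Cd8b1 by -0.17 (permutation p = 0.0866, adjusted p = 0.115).

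The ratio of the lineage factors separated the materials further. Zbtb7b to Runx3 was 1.07, 1.08 and 1.01 in the 10000-cell libraries and 0.712, 0.639 and 0.573 at 5 ng. At 1000 cells it was 1.36, 0.859 and 1.10, and at 1 ng 0.496, 0.447 and 0.553. The 500-cell libraries lay at 0.851, 0.862 and 0.878 and those from 0.5 ng at 0.553, 0.611 and 0.698. At 100 cells it was 0.662, 1.26 and 0.438, so that this group alone overlapped with its RNA group (0.821 and 0.734), and the lowest value was that of replicate 3. The log2 ratio differed by 0.58 between the materials (permutation p = 0.00128, adjusted p = 0.00512), in the same test over single libraries that ignored their inputs. It differed by 0.68 without replicate 3 (permutation p = 6e-05, adjusted p = 0.00024), with 10 T cell libraries above all RNA libraries in both cases. By pair of inputs it differed by 0.72, 1.13, 0.48 and -0.12, from the highest to the lowest, and the last value turned to 0.235 without the 100-cell replicate 3.

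**Figure D5:**
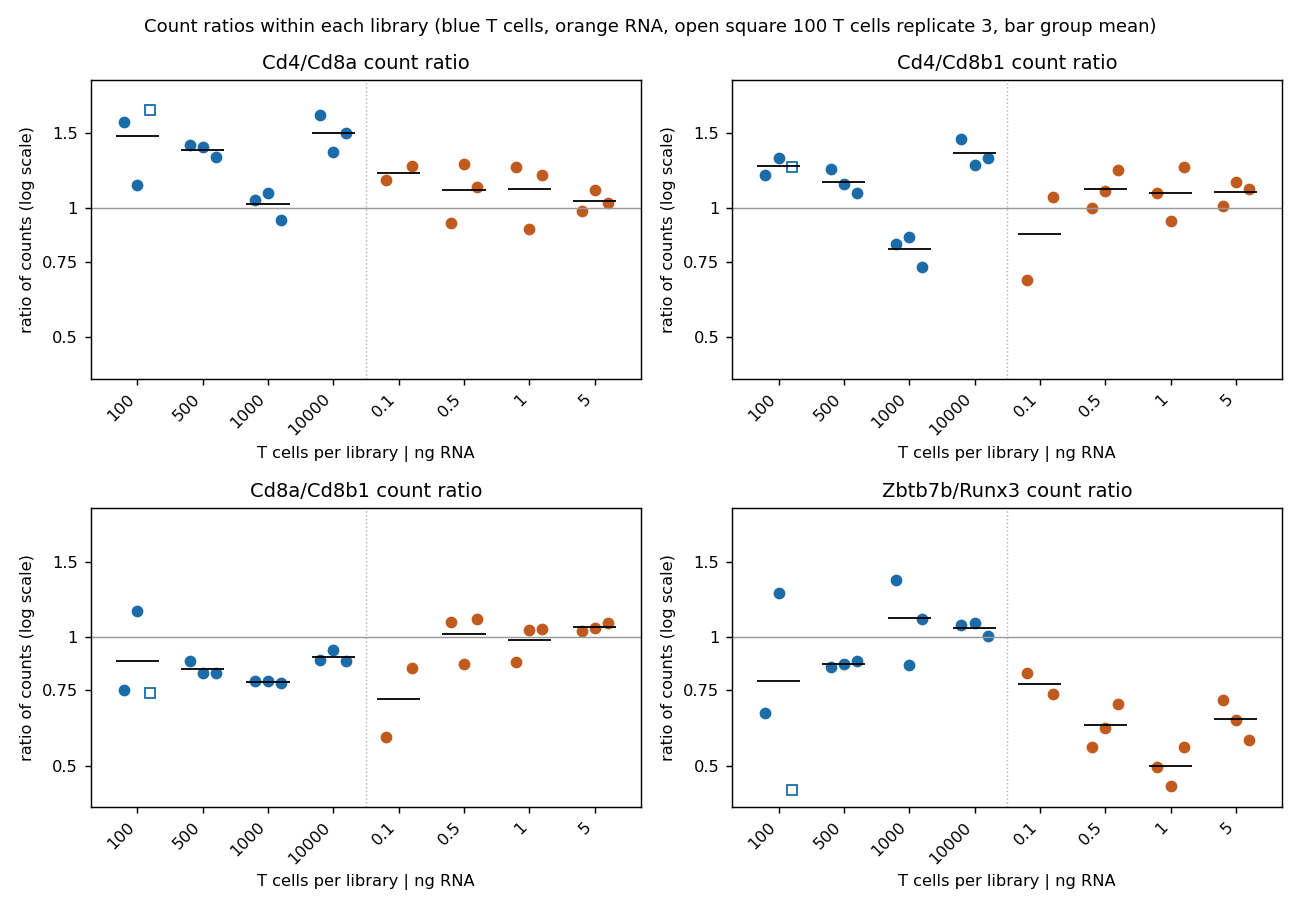
Ratio of counts of 2 genes within each library (y axis, log scale) by T cells or ng RNA per library (x axis); bars are group means and the open square is the 100-cell replicate 3. The 1000-cell libraries have the lowest Cd4 to Cd8b1 ratios among T cells, at 0.731 to 0.859, and Zbtb7b to Runx3 is at 0.851 or more in all T cell libraries from 500 cells upward.

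No ratio had a relation with input that passed after adjustment. Pearson's r and Spearman's rho follow a steady trend, so a dip at a middle input, such as that at 1000 cells, is not measured by them. Of 8 relations with log10 input (4 ratios in 2 materials), the closest was Cd8a to Cd8b1 in RNA, with a Pearson's r of 0.67 (permutation p = 0.0218, adjusted p = 0.175, n = 11) and a Spearman's rho of 0.41 (permutation p = 0.212). It rested on the farthest 2 libraries, which are the whole 0.1 ng group, and without them r was 0.25. In T cells r ran from 0.03 for Cd4 to Cd8a (permutation p = 0.915) to 0.48 for Zbtb7b to Runx3 (permutation p = 0.111, adjusted p = 0.405).

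The genes most like each co-receptor were sought by Pearson's r of log2(CPM + 1) among genes with a mean of at least 10 CPM, and are a description, since libraries share material and depth. Over 23 libraries these were Lck (0.984), Arhgap45 (0.980) and Lat (0.979) for Cd4, Cd3g (0.987), Shisa5 (0.983) and Fos (0.980) for Cd8a, and H2-Q7 (0.984), Tcf7 (0.983) and Rinl (0.982) for Cd8b1. These 23 libraries include the step between the materials. Over the 12 T cell libraries alone they were Spata13 (0.978) and Chd3 (0.941) for Cd4, Shisa5 (0.967), Arl4c (0.960) and Rpl3 (0.951) for Cd8a, and Rpl5 (0.980), Rpl32 (0.948) and Pdk1 (0.937) for Cd8b1.

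Among themselves, Cd8a and Cd8b1 had an r of 0.87 over the 12 T cell libraries, Cd4 and Cd8a 0.65, and Cd4 and Cd8b1 0.50. Without the 100-cell replicate 3 these were 0.73, 0.32 and 0.14, Spata13 stayed the gene most like Cd4 (0.977) and Rpl5 that most like Cd8b1 (0.964), and Rap2a (0.978) took the place of Shisa5 for Cd8a. This subset was chosen after seeing the data. Over the 11 RNA libraries, Cd4 and Cd8a had an r of 0.68 and Cd8a and Cd8b1 one of -0.31.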

How the data were processed

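The authors deposited whole-number counts per gene symbol for 23 libraries, with no normalization. The submitters' processing notes name HISAT2 2.1.0, featureCounts and the build mm8; strand and pair settings are not given in the sources used here. Between 57.9% and 70.7% of a library's nonzero counts were even, so mates of a pair may have been counted singly, and counts are not independent molecules. Each pair of groups was fitted alone with edgeR 4.0.16 in R 4.3.3 (TMM, filterByExpr, quasi-likelihood test, Benjamini-Hochberg adjustment over all genes tested, threshold 0.05), as was a slope over log10 input within a material. SE is the log2 fold change over the root of F. Count ratios had 0.5 counts added to each gene, with two-sided exact permutation tests between groups of 3 or 2 libraries (smallest p 0.1 or 0.2). Between materials, 100000 resamples shuffled single libraries without regard to input. Exon lengths came from GENCODE M21 on GRCm38 (99.9% of symbols matched). Alternatives were DESeq2 1.42.0, other scalings and pseudocounts, no filter, length, 1 fit for all groups, a replicate block and each replicate left out. Tests were tested on simulated data. The 5 genes, the lists and the tests were chosen with earlier results of these data known. Named list genes are the 3 with the highest mean CPM of each list and the 2 with the largest called change between 10000 T cells and 5 ng RNA. Some genes that the rules for named genes and for likeness select are not reported here.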

Additional observations from a re-analysis of the deposited data

Results flagged for a closer look

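The ratio of Cd4 to Cd8b1 went opposite ways between the materials at different inputs. In log2 ratio it was higher in T cells than in RNA by 0.299 at 10000 cells and 5 ng and by 0.556 at 100 cells and 0.1 ng, and it differed by -0.429 at 1000 cells and 1 ng. In each of these 3 pairs the T cell libraries did not overlap with the RNA libraries. A ratio or gene was flagged only where groups lay apart in opposite directions, so this lack of overlap is no further support. The 0.1 ng group had only 2 libraries, with ratios of 0.681 and 1.065. None passed the exact permutation test, with adjusted p = 0.267 at 10000 and at 1000 cells and 0.364 at 100 cells. At 500 cells and 0.5 ng the log2 ratio differed by 0.059 and the groups overlapped. Whether these differences differ from each other was not tested.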

How the results depend on the processing

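The calls in the 3 higher pairs of T cell and RNA inputs kept 4, 4 and 3 of the 5 genes under every alternative run except library totals, where Runx3 joined them at the highest pair. At that pair the genes called in all fell from 8073 to 4269 with all groups in 1 fit. In 100 T cells against 0.1 ng RNA, 0 of the 5 genes passed, against 3 with DESeq2, with no filter, with the replicate block and with all groups in 1 fit, and 0 to 3 without single replicates, while genes called went from 7 to between 0 and 4198. Against 10000 cells, the 100-cell group had 0 of 5, against 3 with DESeq2, 4 with all groups in 1 fit and 0 to 2 without single replicates (0 to 391 genes in all). The 500-cell group had 2 of 5, against 0 with all groups in 1 fit (adjusted p = 0.553 for Cd4 and 0.405 for Zbtb7b) and 0 to 2 without single replicates (30 to 1037 genes, 439 as reported). The 1000-cell group had 2, against 1 with no filter, 0 with all groups in 1 fit (adjusted p = 0.228 for Cd4) and 1 to 2 without single replicates (15 to 783 genes, 438 as reported). In RNA, 0 of 5 passed, against 1 with DESeq2 at 0.1 ng and at 1 ng and for the slope, 1 with all groups in 1 fit at 0.1 ng, and 0 to 2 without single replicates at 0.1 ng. There genes called ran from 0 to 8075 (1572 as reported), from 34 to 1376 at 0.5 ng (639), from 0 to 105 at 1 ng (3) and from 251 to 1713 for the slope (792). The slope over T cells had 1 of 5, against 2 with DESeq2 and 2 with no filter, each adding Zbtb7b, and 0 to 2 without single replicates (14 to 276 genes, 115 as reported). The cause of these changes was not tested. No log2 fold change that passed turned its direction in 695 settings. Count ratio differences between groups moved by less than the larger SD of the 2 groups in all 352 settings. Leaving out a single library or dividing by length cannot move them that far, so this outcome was largely fixed in advance and is no measure of robustness. The sign changed in 16 of the 352 settings, over 11 differences of at most 0.12 in log2 ratio, all between groups that overlapped. Replicate numbers did not pair the libraries, since residuals of 28 same-numbered pairs correlated between -0.0228 and 0.0226. With the replicate block, genes called moved from 7 to 1161 in 100 T cells against 0.1 ng RNA and from 1572 to 392 at 0.1 ng. They moved from 115 to 49 and from 792 to 251 for the slopes, from 3 to 33 at 1 ng and from 0 to 2 at 100 cells. The 0.1 ng group has no replicate 3, so against it the block fits the 100-cell replicate 3 by itself. That setting is thus not separate from leaving this library out. The log2 fold change of Cd4 there was 1.84 with the block and 1.82 without the library. At 0.1 ng the co-receptor genes had 161 to 276 counts per library, and the smallest detectable difference was not measured.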
